A study of Capra hircus with 2 samples.

Results

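Axon guidance ligands and receptors, the ephrins and Eph receptors, semaphorins with their plexins and neuropilins, SLITs and ROBOs, and netrins with the UNC5 receptors, were followed across the cell classes of the fetal goat (Capra hircus) ovary. Genes were taken by symbol, as those starting with EPHA, EPHB, EFNA, EFNB, SEMA, PLXN, ROBO, SLIT, UNC5 or NTN and followed by a digit, plus NRP1 and NRP2. A letter between stem and digit was allowed, as in PLXNA2. This gave 66 genes of the 27271 features listed. They comprise 14 Eph receptors, 7 ephrins, 20 semaphorins, 6 plexins, 2 neuropilins, 3 SLITs, 3 ROBO receptors, 6 netrins, 4 UNC5 receptors and UNC50. Matched to the letter the stems take 62 genes, and UNC5A to UNC5D, the 4 whose digit lies in the stem, were added. UNC50, a membrane protein of the secretory pathway, meets the stem by its letters and is no guidance gene. ROBO1, PLXNA1, PLXNA4, PLXNB2 and EFNA3 have no feature under that symbol and were not analysed here.

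The tissue was ovary of female fetuses at E125 and E85, stages counted in embryonic days, with 1 library per stage and no treatment or allele named in the labels. Enzymes released the cells, which were profiled by droplet single-cell RNA sequencing with a 10x 3′ kit, in which every molecule read is counted once through its unique molecular identifier (UMI). The labels call both samples ovary and female, although the protocol describes testes, and the labels were taken as right. How many animals each library pools is not given in the sources used here.

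Guidance cues are secreted or membrane-bound proteins that attract or repel cells bearing the matching receptor. They were first studied in growing axons, and the same pairs pattern blood and lymphatic vessels and keep neighbouring cell populations apart. Ephrins signal by cell contact through Eph receptors. Class 3 semaphorins are secreted and mostly act through a neuropilin bound to a plexin, SLITs act through ROBO receptors, and netrins through DCC, neogenin and the UNC5 receptors. Neuropilins also bind vascular endothelial growth factor, which places them on vessels.

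The E125 library held 8346 barcodes and 49692252 UMIs, and the E85 library 4397 barcodes and 17748948 UMIs. After filtering, 7023 cells at E125 and 3825 at E85 remained, with medians of 3193 and 3102 UMIs, and 13 barcodes were shared by both libraries. Classes were rebuilt from clusters and marker lists, with the guidance genes and 53 other genes of their pathways left out of the clustering genes. They held 4800 stromal-like cells at E125 and 2626 at E85, 758 and 86 endothelial-like, 601 and 251 pregranulosa-like, 131 and 105 germ-cell-like, 334 and 264 surface-epithelium-like, and 100 and 53 myeloid-like cells. Perivascular-like cells numbered 123 at E125 and 32 at E85, lymphoid-like cells 101 and 28, and glia-like cells 74 and 2, so these 3 classes were not compared between stages. The E85 library also had 378 cells that stayed unnamed, against 1 at E125. The 12 endothelial markers, for example, summed to 3684 CPM (counts per 1000000 UMIs of the class) in endothelial-like cells at E125 and 4127 CPM at E85, and to 50.8 and 78.7 CPM in stromal-like cells. Other lists separated less. The pregranulosa markers summed to 3718 and 1319 CPM in pregranulosa-like cells and to 855 and 721 CPM in surface-epithelium-like cells. Markers of surface epithelium summed to 913 and 1010 CPM in their own class and to 675 and 354 CPM in germ-cell-like cells. The part of this overlap in the levels of these classes was not tested. Different clusters hold most of a class at the 2 stages, namely clusters 0, 1 and 6 at E125 against 18 and 17 at E85 for stromal-like cells, 8 against 22 for pregranulosa-like cells, and 14 and 12 against 13 for surface-epithelium-like cells.

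Levels below are CPM with the exact Poisson 95% interval in parentheses where it bears on a comparison. A fold is the ratio of 2 CPM values with its exact conditional 95% interval. Intervals cover counting error only, since 1 library per stage gives no spread between animals, no test and no p-value. Every difference therefore describes these libraries. UMIs are summed over a class, so large droplets weigh most. The 10 largest held 47.7% of the UMIs of perivascular-like cells at E125 and 59.97% at E85. In endothelial-like cells they held 8.87% and 36.9%. The intervals do not cover this, and its part in the levels of these classes was not tested. A gene was described when it reached 50 CPM and 20 UMIs in a class of at least 50 cells in either library, which 21 of the 66 genes did. At E125 these 21 had their highest level in endothelial-like cells for 6 genes, perivascular-like cells for 5, glia-like cells for 4, stromal-like cells for 2, and in lymphoid-like, myeloid-like, pregranulosa-like and surface-epithelium-like cells for 1 each. Counts are not scaled by transcript length, so a gene is compared with itself across classes and never with another gene.

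**Figure D1:**
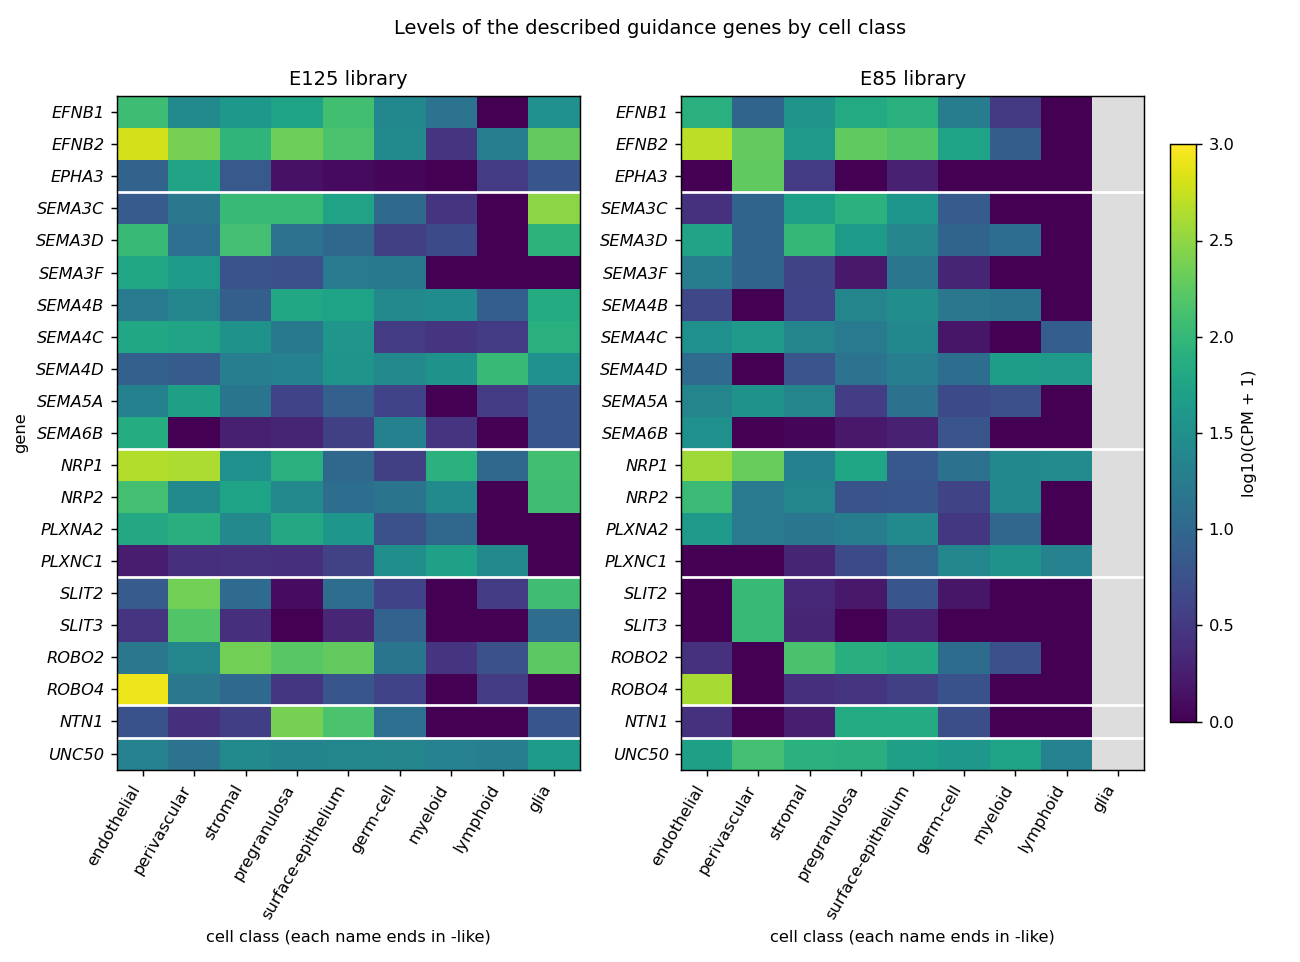
Level of the 21 described genes (rows) in the cell classes (columns), E125 on the left and E85 on the right, as log10 of CPM plus 1; grey marks a class with fewer than 15 cells. ROBO4 is bright in 1 class, at 843 CPM in endothelial-like cells at E125 and 400 CPM at E85, whereas ROBO2 spans stromal-like, surface-epithelium-like and pregranulosa-like cells.

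Among the ephrins, membrane-bound ligands that also signal back into the cell that carries them, EFNB2 had its highest level in endothelial-like cells. It was not confined to vessels, since at E85 these cells held 296 of its 1420 kept UMIs. EFNB2, a mark of arterial endothelium in mouse, stood at 631 CPM (611 to 652) in endothelial-like cells at E125 and 504 CPM (448 to 565) at E85. Perivascular-like cells had 242 CPM (205 to 284) at E125 and 191 CPM (121 to 286) at E85, and pregranulosa-like cells 219 CPM (208 to 230) and 186 CPM (166 to 209). Surface-epithelium-like cells held 140 CPM (129 to 152) at E125 and 153 CPM (137 to 170) at E85. The endothelial level was thus above each of these classes at both stages beyond counting error, while at E125 the perivascular and pregranulosa intervals overlapped. Stromal-like cells had 90.7 CPM (86.0 to 95.5) at E125 and 41.0 CPM (36.6 to 45.9) at E85. EFNB1, the X-linked relative of EFNB2, was spread more widely, with 122 and 82.1 CPM in surface-epithelium-like cells and 117 and 78.4 CPM in endothelial-like cells at E125 and E85. The intervals of those 2 classes overlapped at each stage. EFNA2, a ligand anchored to the membrane by a lipid, reached 33.5 CPM in stromal-like cells at E125 and 16.1 CPM at E85.

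Of the 14 Eph receptors 1 met the limit for description. EPHA3, a receptor for A-type ephrins, was found in perivascular-like cells, at 55.2 CPM (34 UMIs, 38.3 to 77.2) at E125 and 183 CPM (22 UMIs, 114 to 277) at E85. The next class at E125, endothelial-like cells, had 7.92 CPM. EPHA7, another receptor of that class, missed the limit with 32.1 and 21.3 CPM in surface-epithelium-like cells and 30.9 and 34.7 CPM in stromal-like cells at E125 and E85. EPHB4, the receptor that pairs with EFNB2 on veins in mouse, stood at 12.7 CPM (74 UMIs) in endothelial-like cells at E125 and 3.41 CPM (2 UMIs) at E85. EPHA5 was read mainly from surface-epithelium-like cells, at 8.98 CPM at E125 and 7.54 CPM at E85.

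The neuropilins, co-receptors of class 3 semaphorins and of vascular endothelial growth factor, shared vessels but split between vessel cell types. NRP1 stood at 446 CPM (429 to 464) in endothelial-like cells at E125 and 375 CPM (327 to 428) at E85. In perivascular-like cells NRP1 had 424 CPM (374 to 479) at E125 and 199 CPM (128 to 296) at E85, so that its 2 vascular classes overlapped at E125 and not at E85. NRP1 stood at 79.3 and 58.8 CPM in pregranulosa-like cells and at 31.4 and 19.7 CPM in stromal-like cells at E125 and E85. NRP2 was highest in endothelial-like cells at 128 CPM (119 to 137) at E125 and 109 CPM (84.0 to 139) at E85, and glia-like cells overlapped them at E125 with 118 CPM (73.8 to 178), from 22 UMIs. Perivascular-like cells had 26 CPM (14.9 to 42.2) of NRP2 at E125, from 16 UMIs, and 16.6 CPM at E85, from 2 UMIs. Stromal-like cells carried NRP2 at 54.3 CPM at E125 and 22.8 CPM at E85.

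ROBO4, the endothelial member of the ROBO family, had the largest share of its UMIs in a single class among the described genes. Endothelial-like cells held 843 CPM (820 to 867) at E125 and 400 CPM (351 to 455) at E85, and 95.5% and 85.1% of all ROBO4 UMIs in kept cells. Cells were thinned to 2000 UMIs each, which kept 657 of 758 endothelial-like cells at E125 and 72 of 86 at E85. Then 74.7% of endothelial-like cells (exact binomial 95% interval 71.2 to 78.0) had a ROBO4 UMI at E125 and 47.2% (35.3 to 59.3) at E85. The share before thinning was 90.2% and 72.1%, at median depths of 4886 and 4741 UMIs. In stromal-like cells, taken here for the background of free RNA, the thinned share was 1.90% at E125 and 0.405% at E85, at medians of 2864 and 2732 UMIs. In germ-cell-like cells it was 0% at E125 and 8.99% (3.96 to 16.9) at E85. The stromal share thus does not stand for every class, and the source of the germ-cell-like share was not tested. ROBO2, a SLIT receptor of the nervous system and kidney, had another distribution. It stood at 229 CPM (221 to 236) in stromal-like cells, 191 CPM (178 to 204) in surface-epithelium-like cells and 164 CPM (155 to 173) in pregranulosa-like cells at E125, and at 138, 63.0 and 74.9 CPM at E85. Endothelial-like cells had 14.5 CPM of ROBO2 at E125 and 1.70 CPM, a single UMI, at E85. Of the SLITs, secreted repellents that bind ROBO receptors, SLIT2 and SLIT3 were highest in perivascular-like cells. These cells held their own markers at a sum of 11591 CPM at E125 and 10916 CPM at E85, and the stromal markers at 6925 and 15565 CPM, against 9942 and 6893 CPM of the stromal markers in stromal-like cells. The part of the stromal markers, and of the largest droplets given above, in the SLIT levels was not tested. After thinning at E125, 20.3% of 74 perivascular-like cells had a SLIT2 UMI and 16.2% a SLIT3 UMI. In 51 glia-like cells the shares were 21.6% and 0%, and in stromal-like cells 1.68% and 0.217%. SLIT1 had 6 kept UMIs at E125 and 7 at E85. SLIT2 reached 231 CPM (194 to 272) in perivascular-like cells at E125 and 108 CPM (57.5 to 185) at E85. SLIT3 stood at 151 CPM (122 to 185) in the same cells at E125 and 108 CPM (57.5 to 185) at E85. Both rest on 13 UMIs in 32 perivascular-like cells at E85, and glia-like cells added 118 CPM of SLIT2 at E125.

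Netrin-1, NTN1, a secreted cue, was read mostly from 2 classes, pregranulosa-like cells with 69.1% of its UMIs at E125 and 38.7% at E85, and surface-epithelium-like cells with 23.8% and 55.3%. It stood at 241 CPM (230 to 253) in pregranulosa-like cells at E125 and 68.1 CPM (56.0 to 82.1) at E85. Surface-epithelium-like cells had 141 CPM (130 to 152) at E125 and 69.7 CPM (59.2 to 81.5) at E85. At E85 these intervals overlapped, whereas at E125 pregranulosa-like cells were the higher of the pair. Other classes had at most 11.5 CPM at E125, the value of germ-cell-like cells. The share of pregranulosa-like cells with an NTN1 UMI after thinning, of 556 cells at E125 and 238 at E85, was 42.3% (38.1 to 46.5) at E125 and 10.5% (6.91 to 15.1) at E85, and 79.7% and 33.1% before thinning, at medians of 8015 and 5720 UMIs. In stromal-like cells it was 0.542% and 0.202% after thinning. Of the receptors that bind netrins, UNC5C, which mediates repulsion, stood at 39.2 CPM in stromal-like cells at E125 and 43.1 CPM at E85. UNC5B, a vascular netrin receptor, had 26 UMIs in endothelial-like cells at E125 and UNC5A a single UMI in kept cells of both libraries. Neogenin (NEO1) and DCC, netrin receptors outside the symbol rule and given here for that role, stood in pregranulosa-like cells at 126 and 103 CPM and at 0 UMIs in both libraries. NEO1 in surface-epithelium-like cells stood at 152 and 98.5 CPM.

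**Figure D2:**
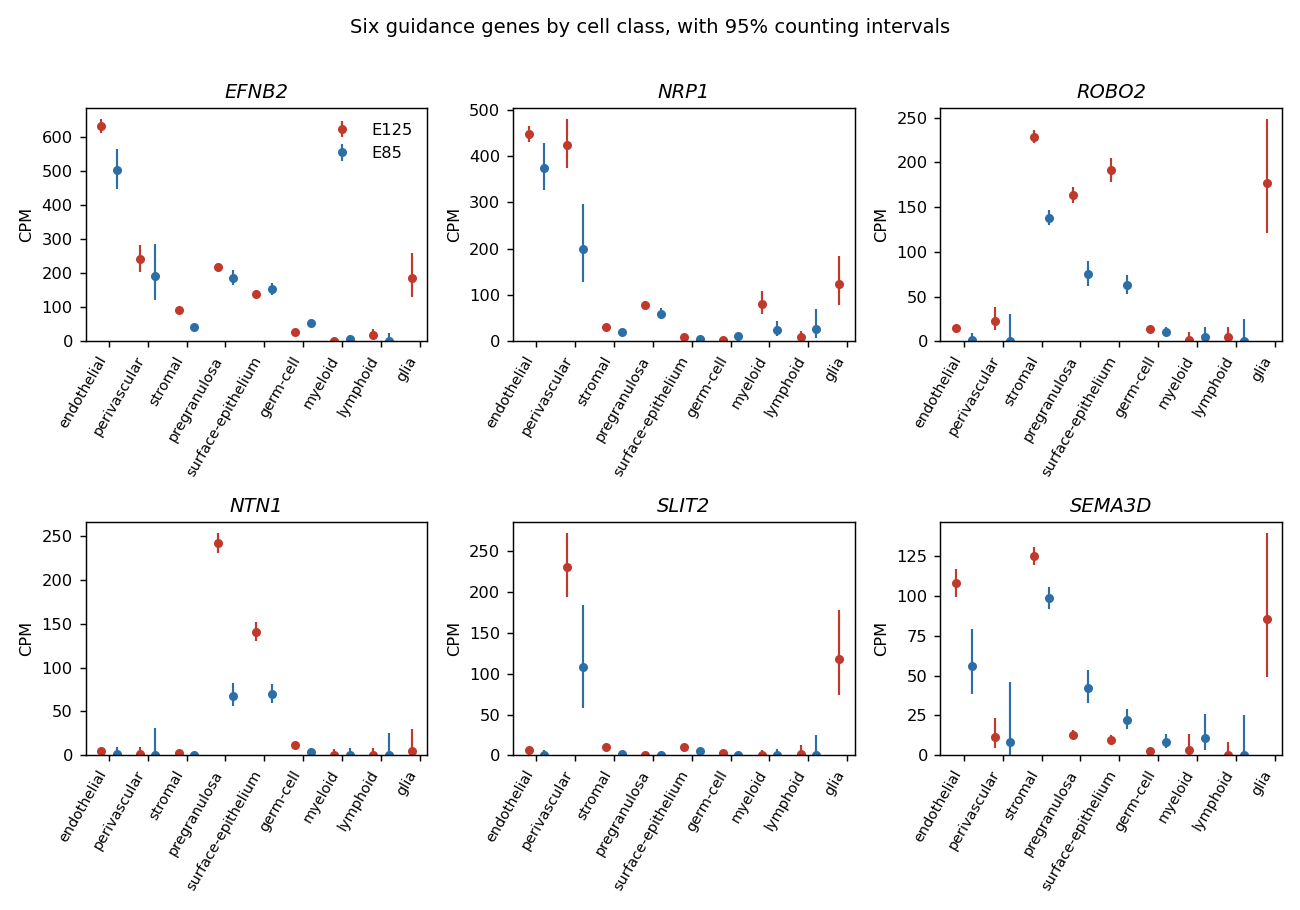
CPM (vertical axis) of 6 guidance genes in each cell class (horizontal axis), E125 left of E85 within each class; whiskers are exact Poisson 95% intervals of counting error, not spread between animals, and glia-like cells, 2 at E85, are shown for E125 alone. EFNB2 and NRP1 peak in endothelial-like cells at 631 and 446 CPM at E125, NTN1 in pregranulosa-like cells at 241 CPM and SLIT2 in perivascular-like cells at 231 CPM.

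Secreted semaphorins were laid out over stroma, vessels and epithelium. SEMA3C, which guides outflow-tract vessels in mouse, stood at 107 CPM in stromal-like cells at E125 and 48.1 CPM at E85, and at 107 and 81.1 CPM in pregranulosa-like cells. Glia-like cells had 300 CPM (226 to 389) of SEMA3C at E125, from 56 UMIs in 74 cells. SEMA3D, a relative with a role in vein patterning in mouse, stood at 124.8 CPM (119 to 130) in stromal-like cells and 108 CPM (99.5 to 117) in endothelial-like cells at E125, against 98.3 and 56.2 CPM at E85. SEMA3F, which acts through NRP2, was led by endothelial-like cells at 61.8 CPM at E125 and 17.0 CPM (10 UMIs) at E85. The next classes were near, perivascular-like cells at 42.2 CPM at E125 and surface-epithelium-like cells at 14.2 CPM at E85. Of the membrane-bound semaphorins, SEMA6B was highest in endothelial-like cells, at 70.9 CPM at E125 and 30.7 CPM at E85, with 412 of 645 kept UMIs at E125 and 18 of 37 at E85. SEMA4C, a plexin B ligand, had 60.9 and 30.7 CPM there, 55.2 CPM in perivascular-like cells at E125, and 80.3 CPM (44.9 to 132) in glia-like cells at E125, from 15 UMIs. SEMA4B stood at 60.8 and 22.3 CPM in pregranulosa-like cells and 54.1 and 29.3 CPM in surface-epithelium-like cells, with 69.6 CPM (37.0 to 119) in glia-like cells at E125, from 13 UMIs. SEMA4D, known as CD100 on T cells, was highest in lymphoid-like cells at 107 CPM (78.7 to 142) at E125, and had 33.1 and 46.7 CPM in myeloid-like cells. SEMA5A reached 50.4 CPM in perivascular-like cells at E125. SEMA6A and SEMA7A were led by endothelial-like cells without meeting the limit, at 47.5 and 39.2 CPM and at 39.6 and 49.4 CPM.

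Plexins transmit semaphorin signals, and 2 of 6 were described. PLXNA2, a partner of neuropilins, had 76.4 CPM in perivascular-like cells, 63.7 CPM in pregranulosa-like cells and 63.7 CPM in endothelial-like cells at E125, against 16.6 CPM (2 UMIs), 17.3 and 40.9 CPM at E85. The E125 intervals of these 3 classes overlapped. PLXNC1, the receptor of SEMA7A, stood at 51.5 CPM (34.2 to 74.4) in myeloid-like cells at E125 and 33.4 CPM (18.7 to 55.1) at E85, and in germ-cell-like cells at 30.4 and 23.0 CPM. PLXND1, the receptor that binds SEMA3E directly, missed the limit with 31.5 CPM in endothelial-like cells at E125 and 11.9 CPM (7 UMIs) at E85.

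Within the endothelial-like class the neuropilins divided by cluster. At E125 a cluster of 61 cells was led by CCL21 and held PROX1 and FLT4, genes of lymphatic endothelium, at 282 and 1266 CPM, against 0.999 and 41.6 CPM in the main cluster of 667 cells led by MECOM. NRP2 stood at 572 CPM in the CCL21-led cluster and 90.3 CPM in the MECOM-led one, a 6.33-fold difference (5.42 to 7.39). NRP1 had 1 UMI in the CCL21-led cluster, 2.18 CPM, and 479 CPM in the MECOM-led one. SEMA3E, a semaphorin that repels blood vessels in mouse, was higher there as well and stood at 96.1 CPM from 44 UMIs against 0.599 CPM from 3 UMIs, a ratio of 160 (51.4 to 807). SEMA6A was 2.37-fold higher (1.68 to 3.27), at 100 against 42.4 CPM. SEMA4D had 50.2 against 3.40 CPM and NTN1 39.3 against 1.80 CPM. EFNB2 stood at 428 against 665 CPM, and ROBO4 at 207 against 885 CPM. SEMA7A had 6.55 CPM from 3 UMIs against 42.8 CPM. EFNB1 had 0 UMIs against 129 CPM, 19.7-fold lower with 3 UMIs as the floor of the cluster, and its exact lower 95% limit was 15.95-fold. At E85 the same cluster held 6 cells, with 0 UMIs of NRP1, 13 of NRP2 (262 CPM) and 7 of SEMA3E (141 CPM), against 220, 51 and 1 UMIs in the other 80 endothelial-like cells. Both clusters come from 1 library per stage, and the guidance genes were not among the genes that formed them.

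Stromal-like clusters differed as well. EPHA7 stood at 86.1 CPM in cluster 2, led by CCL11, and at 74.7 CPM in cluster 6, led by IGFBP3, against 5.1 CPM in cluster 0, the largest one, at E125. At E85 it had 106 CPM in cluster 17 and 18.2 CPM in cluster 18. SEMA3D ran the other way at E125, with 174 and 165 CPM in clusters 0 and 1 and 18.7 CPM in cluster 6, and at E85 it had 114 CPM in cluster 18 and 54.1 CPM in cluster 17. SLIT2 within stroma was highest in cluster 6 at 44.4 CPM, against 1.2 CPM in cluster 0. ROBO2 varied less, between 113 and 289 CPM over the stromal-like clusters of at least 50 cells at E125.

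**Figure D3:**
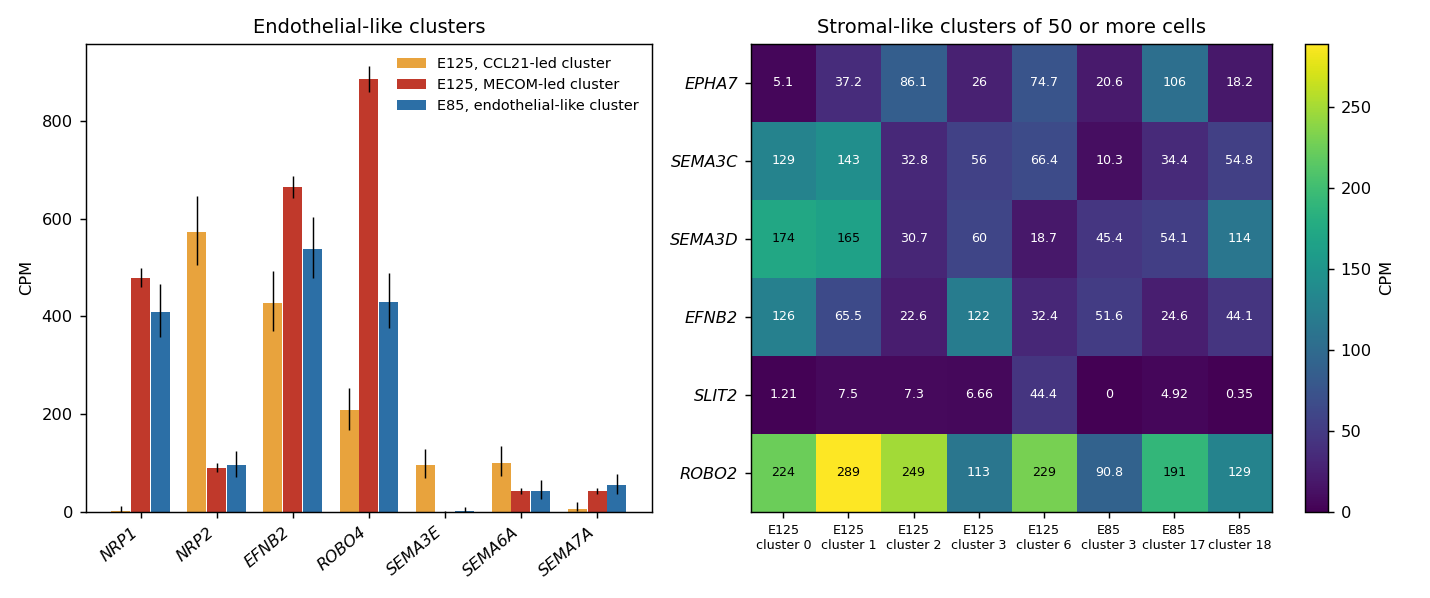
Left, CPM of 7 genes in the CCL21-led and the MECOM-led endothelial-like clusters at E125 and in the cluster of 80 endothelial-like cells at E85, with exact Poisson 95% intervals; right, CPM of 6 genes in the stromal-like clusters of both libraries. NRP2 is at 572 CPM in the CCL21-led cluster and 90.3 CPM in the MECOM-led one, NRP1 at 2.18 and 479 CPM, and EPHA7 and SEMA3D are high in different stromal-like clusters.

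Between stages, a gene was measured in a class when it had 50 or more UMIs over both libraries and was counted as higher or lower at 2-fold. That minimum is met mostly through the larger E125 library, so it favours features that are higher at E125, and the counts and medians below hold for the measured features alone. For the guidance genes the medians with no minimum are given beside them. Of the 66 genes, 35 were measured in at least 1 of the 6 compared classes and 31 in none. Among the 23 measured in 3 or more classes, 10 had a ratio above 1 in each, namely EPHA4, NRP2, NTN1, PLXNA2, PLXND1, ROBO2, SEMA3C, SEMA3F, SEMA4B and SEMA4D. Another 5 had a ratio below 1 in each, namely SEMA3E, SEMA5A, SEMA7A, UNC5C and UNC50. The share of all features with either pattern was not computed, and all classes of a stage come from the same library. These counts are therefore no result about guidance genes as a group. The median log2 ratio of all measured features lay between -0.10 and 0.17 over the 6 classes.

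In stromal-like cells 29 genes were measured, of which 10 were higher at E125, beside 18.0% of all 10190 features measured, and 2 lower, beside 10.7%. Their median log2 ratio was 0.68, against -0.01 for all features, and 0.18 against -0.29 with no minimum. NRP2 was 2.38-fold higher (2.02 to 2.82), at 54.3 CPM at E125 and 22.8 CPM at E85. SEMA3C was 2.22-fold higher (1.98 to 2.49), EFNB2 2.21-fold (1.95 to 2.51) and EFNA2 2.08-fold (1.70 to 2.55). Below 20 CPM at both stages, and picked after their values were seen, were SLIT2, at 10.1 and 1.18 CPM, and ROBO4, at 9.69 and 1.57 CPM. ROBO4 is the endothelial gene above, and the endothelial markers summed to 50.8 CPM in these cells at E125 and 78.7 CPM at E85. Most of that sum was EMCN, at 36.9 and 65.8 CPM, which also stood at 142 and 216 CPM in pregranulosa-like cells. The other markers went both ways. VWF stood at 2.87 and 1.44 CPM and ESAM at 3.12 and 1.31 CPM. EGFL7 stood at 0.319 and 2.88 CPM and TEK at 1.21 and 3.15 CPM. The part of endothelial RNA in the stromal ROBO4 ratio was not tested. SEMA3E was 2.65-fold lower (2.08 to 3.39), at 7.72 CPM at E125 and 20.5 CPM at E85. UNC50 was 3.11-fold lower (2.74 to 3.53), at 26 and 80.9 CPM, and was also lower in endothelial-like, pregranulosa-like and surface-epithelium-like cells. Named by fold over other clusters, an alternative rule that leaves 510 stromal-like cells at E85, the class gave EFNB2 a 3.47-fold and EFNA2 a 1.38-fold difference, and at a clustering resolution of 2 EFNB2 was 1.94-fold higher.

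In endothelial-like cells 21 genes were measured, of which 7 were higher at E125, beside 19.2% of all 6999 features, and 1 lower, beside 7.43%. Their median log2 ratio was 0.84, against 0.17 for all features, but 0.32 against 0.015 with a minimum of 20 UMIs and -0.57 against -0.67 with none. ROBO4 was 2.11-fold higher (1.85 to 2.41), at 843 CPM at E125 and 400 CPM at E85. SEMA3F was 3.63-fold higher (1.95 to 7.63), PLXND1 2.64-fold (1.26 to 6.66) and SEMA6B 2.31-fold (1.45 to 3.94), from 10, 7 and 18 UMIs at E85. EFNB2, NRP1 and NRP2, the other leading vessel genes, had ratios of 1.25, 1.19 and 1.17. The stromal markers summed to 991 CPM in this class at E125 and 625 CPM at E85, and the perivascular ones to 861 and 256 CPM. Their part in these ratios was not tested.

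Pregranulosa-like cells differed in their own markers between the stages. AMH stood at 195 CPM at E125 and 1.24 CPM at E85, and FST at 1411 and 178 CPM. HSD17B1, at 524 and 85.5 CPM, INHA, IRX3, IRX5, TRIB2, KITLG, WNT6 and LGR5 were also higher at E125. GATM was lower, at 79.2 CPM at E125 and 102 CPM at E85. So were 3 markers of low level, AMHR2 at 3.86 and 6.81 CPM, NR5A1 at 2.66 and 6.19 CPM, and RSPO1 at 0.133 and 1.86 CPM. The E125 class thus includes AMH-expressing cells, whose part in the ratios below was not tested. In pregranulosa-like cells 20 genes were measured, of which 5 were higher at E125, beside 14.6% of all 7452 features, and 2 lower, beside 10.6%. Their median log2 ratio was 0.31, against -0.06 for all features, but -0.68 against -0.57 with no minimum, where both the sign and the order turn. NRP2 was 4.99-fold higher (2.48 to 11.7), at 24.7 CPM at E125 and 4.96 CPM, 8 UMIs, at E85. PLXNA2 was 3.67-fold higher (2.51 to 5.59), at 63.7 and 17.3 CPM, and NTN1 3.54-fold higher (2.92 to 4.33), at 241 and 68.1 CPM. SEMA4B was 2.73-fold higher (1.94 to 3.94) and ROBO2 2.18-fold (1.81 to 2.65). SEMA3D was 3.23-fold lower (2.34 to 4.45), at 13.0 CPM at E125 and 42.1 CPM at E85, and UNC50 3.61-fold lower (2.83 to 4.59). Named by fold over other clusters, the class kept 14 cells at E85, and there NRP2 was 2.65-fold lower, PLXNA2 and SEMA4B stood at ratios of 0.973 and 0.929, and ROBO2 at 1.07. SEMA3D was 1.67-fold lower with doublets kept.

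In surface-epithelium-like cells 23 genes were measured, of which 4 were higher at E125, beside 14.1% of all 7123 features, and 3 lower, beside 7.78%. Their median log2 ratio was 0.53, against 0.10 for all features, but 0.17 against 0.036 with a minimum of 20 UMIs, -0.40 against -0.36 with none, and -0.54 with doublets kept, when 20 cells of the class remain at E85. ROBO2 was 3.03-fold higher (2.54 to 3.65), at 191 CPM at E125 and 63.0 CPM at E85, and NTN1 2.02-fold higher (1.69 to 2.42), at 141 and 69.7 CPM. SEMA3E was 3.64-fold lower (2.56 to 5.23), at 11.5 CPM at E125 and 41.7 CPM at E85. SEMA3D was 2.35-fold lower (1.53 to 3.63) and UNC50 2.15-fold lower (1.63 to 2.85). With no cell filter, which leaves 31 cells of the class at E85, NTN1 was 5.69-fold higher and SEMA3D stood at a ratio of 0.967. As a mean over cells SEMA3E stood at 0.764. By the naming on folds ROBO2 was 1.77-fold higher and NTN1 stood at 1.16.

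In germ-cell-like cells 19 genes were measured, of which 7 were higher at E125, beside 18.0% of all 9116 features, and 4 lower, beside 18.1%. Their median log2 ratio was 0.64, against -0.10 for all features, but -0.83 against -0.67 with no minimum and 1.17 with droplets of 20000 or more UMIs alone. SEMA4D was 2.27-fold higher (1.45 to 3.74), at 25 CPM at E125 and 11 CPM at E85. EFNB2 was 2.08-fold lower (1.64 to 2.62), at 26.2 CPM at E125 and 54.4 CPM at E85. Under 20 CPM at both stages, and also picked after their values were seen, were NRP1 and SLIT3. NRP1 was 4.52-fold lower (2.47 to 8.18), at 2.67 and 12.0 CPM. SLIT3 had 78 UMIs at E125 and 0 at E85, 4.90-fold higher with 3 UMIs as the floor of the class sum, which is not a lower limit. The E85 germ-cell-like cells are shallow, with a median of 4648 UMIs against 50845 UMIs at E125, and their 10 largest droplets held 59.2% of the class's UMIs, against 23.7% at E125. The endothelial markers summed to 24.9 CPM in this class at E125 and 115 CPM at E85, and the stromal markers to 189 and 385 CPM. With droplets of 20000 or more UMIs alone, 71 at E125 and 22 at E85, an alternative chosen after seeing the data, EFNB2 stood at a ratio of 0.954. Its ratio was above 1 with no cell filter, with doublets kept and at a resolution of 2.

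In myeloid-like cells NRP1 was the 1 gene measured and was 3.31-fold higher (1.68 to 7.10), at 80.9 CPM from 44 UMIs at E125 and 24.5 CPM from 11 UMIs at E85. Of all 2054 features measured there, 16.4% were higher and 9.01% lower. After thinning, 10.0% of 80 myeloid-like cells (4.42 to 18.8) had an NRP1 UMI at E125 and 3.85% of 52 (0.469 to 13.2) at E85, intervals that overlap, at medians of 4820 and 7504 UMIs. The unthinned shares were 24% and 13.2%. In stromal-like cells the thinned share was 4.58% at E125 and 3.44% at E85. In germ-cell-like cells it was 0 of 99 cells, which allows up to 3.03%, and 10.1%. In surface-epithelium-like cells it was 2.56% and 0.389% (0.00985 to 2.15). The E85 share of myeloid-like cells thus lay among those of other classes, and its interval overlapped that of surface-epithelium-like cells. Which of these classes shows the background of free RNA was not tested. As a mean over cells, NRP1 in myeloid-like cells was 10.6-fold higher.

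**Figure D4:**
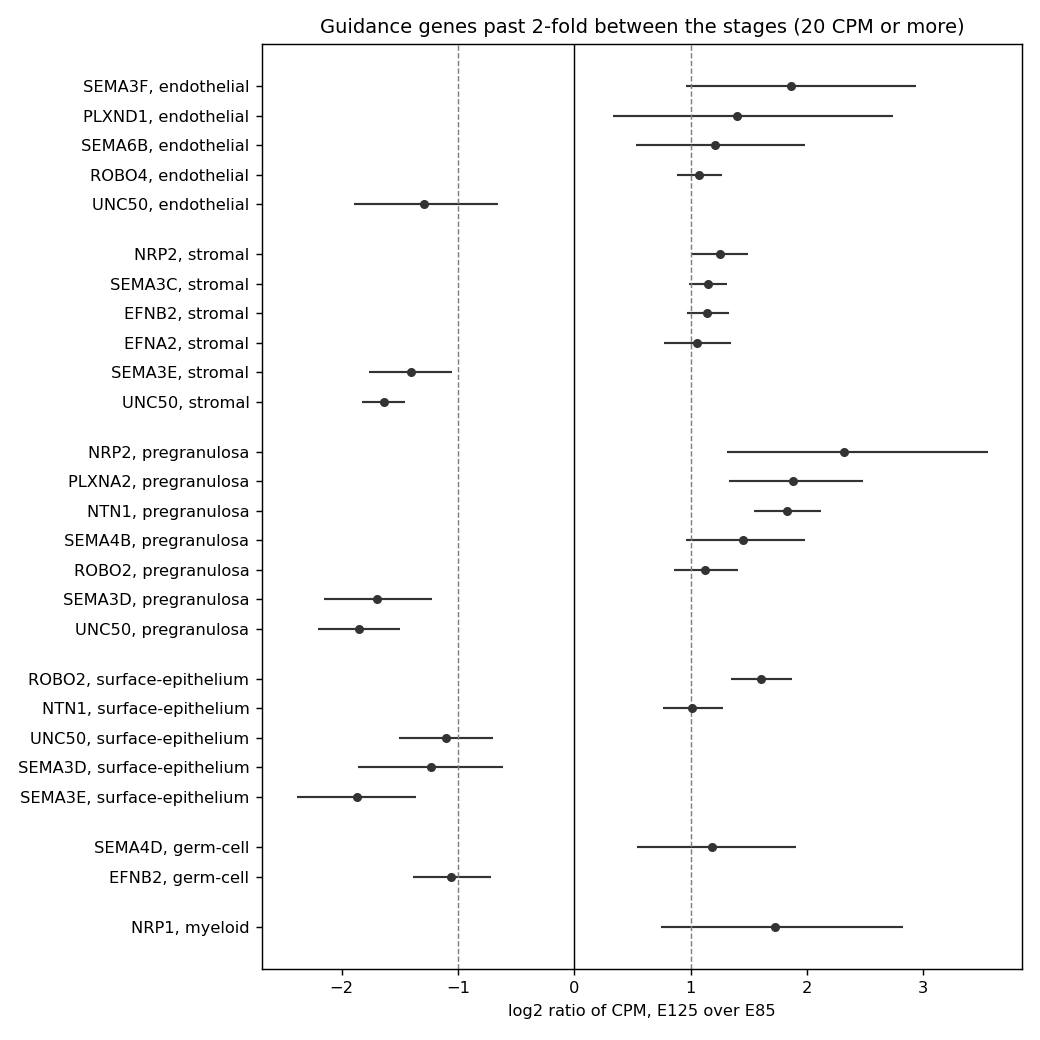
Ratio of E125 over E85 (log2 axis, horizontal) for each pair of gene and class past 2-fold with 20 CPM in at least 1 library, with exact conditional 95% intervals of counting error; dashed lines mark 2-fold. NRP2 in pregranulosa-like cells lies farthest right at 4.99-fold with a wide interval, and SEMA3E and UNC50 lie on the lower side wherever they appear.

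The other genes of guidance signalling, 53 partners and effectors of the receptors, were counted by the same limits and stand beside the same shares of all features, 18.0% higher and 10.7% lower in stromal-like cells and 19.2% and 7.43% in endothelial-like cells, with the other classes as given above. In stromal-like cells 14 of 38 measured were higher and 1 lower, in endothelial-like cells 14 of 31 and 0, and in pregranulosa-like cells 8 of 27 and 0. In germ-cell-like cells 9 of 34 were higher and 3 lower, in surface-epithelium-like cells 6 of 29 and 0, and in myeloid-like cells 1 of 3 and 0. Their median log2 ratios were 0.63, 0.88, 0.37, 0.50, 0.59 and 0.80 in that order of classes, against -0.01, 0.17, -0.06, -0.10, 0.10 and 0.13 for all features. In stromal-like cells FYN, a kinase downstream of netrin and semaphorin receptors, was 7.46-fold higher (5.12 to 11.3), and RASA1, a Ras inhibitor bound by EphB receptors, 4.79-fold higher (3.99 to 5.80). There DPYSL3, a collapsin response protein that binds the cytoskeleton, was 4.73-fold higher (3.32 to 6.95), RGMB, a neogenin ligand, 3.80-fold (3.27 to 4.43), the kinase ABL1 3.41-fold (2.5 to 4.76), and ENAH, an actin regulator downstream of ROBO receptors, 2.81-fold (2.54 to 3.12). In pregranulosa-like cells DPYSL3 had 388 UMIs at E125 and 5 at E85, a ratio of 16.7 (7.08 to 51.6), and RASA1 was 4.89-fold higher (3.06 to 8.34). VAV3, an exchange factor activated by Eph receptors, had 9 UMIs in endothelial-like cells at E85, where it was 5.78-fold higher (3.02 to 12.7) at E125, and 5 UMIs in surface-epithelium-like cells, where it was 9.72-fold higher (4.02 to 30.6). In endothelial-like cells PITPNA, a phosphatidylinositol transfer protein linked to netrin signalling in mouse, had 148 UMIs at E125 and 0 at E85. That is 4.99-fold higher with 3 UMIs as the floor of the class sum, with an exact lower 95% limit of 4.00-fold. PITPNA was also scarce at E85 in other classes. It had 124 and 0 UMIs in pregranulosa-like cells and 197 and 7 UMIs in stromal-like cells, under 20 CPM at both stages. The difference was thus not particular to endothelial-like cells. In germ-cell-like cells NGEF, an exchange factor bound by EphA receptors, was 5.28-fold higher (2.98 to 10.3) and the adaptor NCK2 3.62-fold (3.05 to 4.34), whereas NCK1 was 2.04-fold lower (1.62 to 2.56).

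The remaining 45 genes did not reach the limit for description and had 1 to 1405 UMIs over both libraries, with a median of 60. In all, 19 of the 66 genes had fewer than 50 UMIs over both libraries. NTN5 had 34 of its 35 kept UMIs at E125 in germ-cell-like cells, and EPHA10 18 of 20. PLXNB3, a plexin of glia in mouse, had 13 of its 32 kept UMIs at E125 in glia-like cells, 69.6 CPM. SEMA4A, an immune semaphorin, had 7 of its 9 kept UMIs at E85 in myeloid-like cells. For genes with fewer than 50 UMIs over both libraries a difference between stages could not be measured at this depth. Others of the 45, among them EFNA2, SEMA3E and PLXND1, were measured between stages above.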

How the data were processed

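For 1 ovary library per stage the authors deposited raw counts, whole UMI numbers for each feature and barcode. Per the file headers the count matrices come from Cell Ranger 6.0.0, while the submitters' processing notes name Cell Ranger 3.1. The genome's build and its annotation were not given in the sources used here. Symbols come from the deposited count files alone. Barcodes with fewer than 500 genes or over 20% of UMIs from 13 mitochondrial genes were left out, 809 at E125 and 425 at E85. Scrublet's own threshold called 0 and 2 barcodes, so the highest scores, 0.8% per 1000 barcodes, were removed instead, 557 (6.67%) and 155 (3.53%), and some doublets will remain.

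Counts per 10000 were logged, and both libraries were clustered together with scanpy 1.11.5 under Python 3.11.15 (2000 variable genes without guidance or pathway genes, of which 15 guidance genes would have qualified, 30 components, 15 neighbours, Leiden resolution 1). Each cluster part of at least 15 cells was given the class whose markers had the highest mean share of their top CPM, if that mean was at least 0.3 and 3 markers reached 0.25, with markers under 20 CPM left out. Names are thus rebuilt, and where values differ from those of the study, the naming may be why.

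Per library, the UMIs of a class were summed and scaled to the class total (CPM). Sums carry exact Poisson, ratios exact conditional and shares exact Clopper-Pearson 95% intervals (scipy 1.17.1), covering counting error only. Fewer than 3 UMIs were set to a floor of 3 in ratios. For shares, cells were thinned to 2000 UMIs. The ratio rule was tested on simulated data. TMM factors (edgeR 4.0.16) and DESeq2 1.42.0 size factors on the deposited counts served as alternative scalings, under R 4.3.3. Genes were named between stages with 50 UMIs over both libraries, 2-fold and 20 CPM in a library, and of pathway genes at most 6 per class by ratio. Members, marker lists, pathway list and naming rule were chosen with earlier results of these data known. One pathway result is not reported here.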

Additional observations from a re-analysis of the deposited data

Results flagged for a closer look

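EFNB2 and NRP1 each differed between stages in opposite directions in different classes. EFNB2 was 2.21-fold higher at E125 in stromal-like cells and 2.08-fold lower in germ-cell-like cells. In germ-cell-like cells its ratio was above 1 with no cell filter, with doublets kept and at resolution 2, and 0.954 in droplets of 20000 or more UMIs. NRP1 was 3.31-fold higher at E125 in myeloid-like cells and 4.52-fold lower in germ-cell-like cells. As a mean over cells these NRP1 differences were 10.6-fold and 7.02-fold. These differences between classes were not tested, since each stage has 1 library. The germ-cell-like values rest on 104 EFNB2 and 23 NRP1 UMIs at E85.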

How the results depend on the processing

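No paired analysis was possible because each stage has 1 library, and no library could be left out. Over 16 alternatives, 358 of 364 ratios of the genes named between stages kept their direction, 36 of them moving outside the counting interval of the reported ratio. The 6 exceptions were, as log2 ratios, NRP2 (-1.40), PLXNA2 (-0.039) and SEMA4B (-0.11) in pregranulosa-like cells when clusters were named by fold over other clusters, and EFNB2 in germ-cell-like cells with no cell filter (0.067), doublets kept (0.074) and resolution 2 (0.043). The tally of 364 includes ratios that could not change direction. The minimum of 20 UMIs and no minimum alter which genes are measured and leave the ratios of the named genes as they were. Endothelial-like, germ-cell-like and myeloid-like cells were also unchanged by the naming on folds. Genes not measured under an alternative gave no ratio to the tally. Counts of genes past 2-fold moved by over 1.5 times as follows. With a minimum of 20 UMIs, 4 were lower in pregranulosa-like cells, 6 lower in surface-epithelium-like cells, and 2 higher and 1 lower in myeloid-like cells. With no minimum, 17, 24, 22, 28, 10 and 3 were lower in stromal-like, endothelial-like, pregranulosa-like, germ-cell-like, surface-epithelium-like and myeloid-like cells, and 7 and 2 higher in the last pair of classes, since the floor then stands in for the shallower library. In germ-cell-like cells 2 were lower under TMM factors, DESeq2 size factors, the stricter cell filter, no cell filter, doublets kept and resolution 2, and 1 with droplets of 20000 or more UMIs, while 11 were higher with no cell filter and 4 as a mean over cells. In pregranulosa-like cells 4 were lower with no cell filter and at resolution 0.5, and by the naming on folds 1 was higher and 10 lower. In surface-epithelium-like cells 6 were lower with doublets kept, 5 with libraries clustered separately and 1 as a mean over cells, and 2 were higher by the naming on folds. Endothelial-like cells had 2 lower as a mean over cells. The stricter cell filter left 0 higher in myeloid-like cells. Thinning to 2000 UMIs left 0 lower in endothelial-like cells, 1 lower in pregranulosa-like cells, 0 higher and 0 lower in germ-cell-like cells, 2 higher and 0 lower in surface-epithelium-like cells and 0 higher in myeloid-like cells. Except where fewer UMIs or cells enter, the cause was not tested. TMM factors moved the median log2 ratio of all features to 0.18 in germ-cell-like cells, 0.14 in pregranulosa-like cells and -0.05 in myeloid-like cells, against -0.10, -0.06 and 0.13. Surface-epithelium-like cells had no E85 value at resolution 0.5. Of the 21 described genes, 17 to 21 at E125 and 16 to 20 at E85 kept their leading class over the alternatives that change the cells or their names.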
